A study of Mus musculus with 12 samples.

Results

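The semaphorin, slit and netrin families and their plexin, neuropilin, robo and UNC5 receptors were followed in mouse embryonic fibroblasts on their way to induced motor neurons. The members were every gene of the deposited table whose symbol names one of these families, 45 in all. Of these, 41 reached 10 normalised counts in 3 or more libraries and were tested, among 14207 tested genes of the 23077 in the table. They were 7 secreted class 3 semaphorins, 12 membrane semaphorins, 2 neuropilins, 8 plexins, 3 slits, 2 robos, 3 netrins and 4 UNC5 receptors. Ntn5, Plxnb3, Robo3 and Sema4a lay below that level and are not in any count. The rule used names and the level reached in any 3 libraries, and no comparison between groups. A gene could therefore pass through a group where it was high. The members were chosen with earlier results of these data known.

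Guidance cues steer growing axons and migrating cells. Semaphorins act through plexins, and most secreted class 3 members need a neuropilin as the co-receptor that binds them. Slits repel cells through robo receptors, while netrin-1 attracts axons through Dcc and repels them through UNC5 receptors. Motor neurons carry several of these receptors as their axons leave the spinal cord, and fibroblasts make many of the ligands.

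All 4 groups were primary fibroblasts carrying the Hb9::GFP reporter, infected with a retrovirus for the motor neuron factors Ngn2, Isl1 and Lhx3 and collected at 4 days post infection (dpi). RISDD cells also received constitutively active HRAS(G12V) placed ahead of an internal ribosome entry site (IRES), with SNAP-tagged p53DD, a dominant-negative p53 fragment, behind it. SDDIR cells received those coding sequences in the opposite order, with SNAP-p53DD first and HRAS(G12V) second. SDD cells received SNAP-p53DD without HRAS, and NIL cells received the 3 conversion factors alone. The medium was changed at 3 dpi in all 4 groups. RepSox, which blocks TGF-beta receptor kinase activity, was given from 3 dpi to RISDD, SDDIR and SDD cells but not to NIL cells. SNAP-positive cells were sorted in RISDD, SDDIR and SDD, and live single cells in NIL, so SDD differed from NIL in the virus, the inhibitor and the sort together. The RNA came from mixed sorted cells before conversion was complete, and Chat, the enzyme that makes acetylcholine, was listed at 0 in every library. In such bulk RNA, fewer cells of a type and less RNA per cell cannot be told apart.

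Values are normalised counts, that is gene counts that the authors had divided by 1 constant per library. RISDD, SDD and NIL had 3 libraries each (A to C) and SDDIR had 2, since 1 SDDIR heading stood on 2 identical columns that were counted once. Reads, recovered as whole multiples of what 1 read is worth, numbered 14872639 to 29815073 per library. Log2 changes are on the log2(value + 1) scale and are given ± their standard error. NIL C stood apart from its group. The members' median absolute log2 difference was 0.649 between NIL C and NIL A and 0.561 between NIL C and NIL B, against 0.117 to 0.330 for every other pair of replicates. Mitochondrial transcripts made up 0.537% of NIL C and 2.60% to 4.04% of the other libraries. Of the 41 members, 10 were more than 1.5 times above both other NIL libraries in NIL C, and 6 were more than 1.5 times below both. The labels call replicates biological without naming separate cultures, so p-values measure the spread between these samples.

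The 11 fibroblast markers summed to 93266 to 96130 in RISDD, 170693 to 177222 in SDDIR, 579783 to 718296 in SDD and 780309 to 1152600 in NIL. The 11 neuron markers summed to 14190 to 15602 in RISDD, 6578 to 6730 in SDDIR, 7955 to 14689 in SDD and 3003 to 5546 in NIL. Nefl and Nefm made up most of the RISDD sum (11890 to 13391), and the other 9 neuron markers summed to 2126 to 2299.6 in RISDD, 2683 to 3679 in SDDIR, 5079 to 6823 in SDD and 2369 to 3912 in NIL. Of the 10 neuron markers tested, 4 were higher and 5 lower in RISDD than in SDD, with a median log2 change of -0.67. The higher ones were Nefl, Nefm, Snap25 and Stmn2, and the lower ones Tubb3, Map2, Dcx, Elavl3 and Syt1. Of all tested genes, 42.6% were called in RISDD against SDD and 22.5% in SDDIR against SDD. The 8 motor neuron markers include Isl1 and Lhx3, which the cells received, and the other 6 summed to 824 to 1012 in RISDD, 363 to 493 in SDDIR, 4752 to 14363 in SDD and 2098 to 4084 in NIL. Of the 6 motor neuron markers tested, 1 was higher and 3 were lower in RISDD than in SDD (median log2 change -1.99), and none was higher and 4 were lower in SDDIR than in SDD (median -1.87), Isl1 among them. Chodl, a marker of fast motor neurons, had 10.1 to 21.0 normalised counts in RISDD, 104 to 166 in SDDIR, 3812 to 12572 in SDD and 1638 to 3562 in NIL. Prph, or peripherin, had 7.42 to 16.2 in RISDD, 15.4 to 21.2 in SDDIR, 602 to 1182 in SDD and 183 to 389 in NIL. Slc5a7, the motor neuron marker that was higher in RISDD than in SDD, went the other way. It had 793 to 967 in RISDD, 236 to 293 in SDDIR, 259 to 463 in SDD and 83.5 to 270 in NIL. Slc5a7 made up most of the RISDD sum of the other 6 motor neuron markers, and Chodl most of the SDD sum. The 6 epithelial markers in the table summed to 8668 to 12760 in RISDD, 2429 to 3765 in SDDIR, 59.6 to 72.2 in SDD and 895 to 989 in NIL. Krt18 (6064 to 8402 in RISDD) and Krt8 (2153 to 4070) made up most of the RISDD and SDDIR sums. Dsp made up most of the NIL sum, with 840 to 882 in NIL, 110 to 206 in RISDD, 39.0 to 42.7 in SDDIR and 37.7 to 56.4 in SDD. All 6 were higher in RISDD than in SDD, and 2 were higher and 0 lower in SDDIR than in SDD. The 9 endothelial markers stayed between 533 and 632 in RISDD, mostly from Cdh5, and between 74.1 and 179 elsewhere. Of the 4 endothelial markers tested, 3 were higher and 0 lower in RISDD than in SDD. Emcn, a marker of endothelium that was not tested, was listed at 0 in every RISDD, SDDIR and SDD library. The 9 macrophage markers summed to 659 to 924 in RISDD, 385 to 646 in SDDIR, 405 to 917 in SDD and 1366 to 5672 in NIL. Cd68 made up most of the RISDD and SDDIR sums, with 506 to 779 in RISDD, 316 to 345 in SDDIR and at most 124 in SDD. Of the 9, 1 was higher and 5 were lower in RISDD than in SDD (median log2 change -2.43). In SDDIR against SDD, 1 was higher and 1 lower (median -2.17). The 7 Schwann and neural crest markers stayed between 63.1 and 139 in RISDD, SDDIR and SDD and between 279 and 426 in NIL. These sums move with many of the results below, and their part in them was not tested.

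With HRAS ahead of the IRES, the guidance families moved mostly downward. Against SDD, 20 of the 41 members were lower in RISDD and 7 were higher, called by limma across all tested genes at a Benjamini-Hochberg adjusted p under 0.05. Of all tested genes, 42.6% were called in that comparison, 22.6% lower and 20.0% higher, and 65.9% of the members were called. The members' median log2 change was -1.08, against 0.02 over all tested genes. Against the same SDD libraries, SDDIR had 15 members lower and 5 higher, where 22.5% of all tested genes were called (13.9% lower, 8.66% higher), with a median of -0.47 against 0.01. Without SDDIR A or without SDDIR B the SDDIR count of 20 dropped to 12 and 13.

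RISDD and SDDIR, which carry the same coding sequences in opposite order, were also compared directly. RISDD had 9 members lower and 5 higher than SDDIR, where 9.69% of all tested genes were called (5.05% lower, 4.64% higher) and the members' median log2 change was -0.12 against 0.01. That count of 14 rests on few libraries, being 4 without SDDIR A, 3 without SDDIR B, 8 without RISDD B, 7 without RISDD C and 21 without NIL C, which enters the shared estimate of spread. The share of all tested genes called moved too, to 4.31% without RISDD B, 4.79% without RISDD C and 29.4% without NIL C. Adding p53DD with RepSox and the SNAP sort went with 7 members higher and 5 lower in SDD than in NIL, where 17.6% of all tested genes were called (9.32% higher, 8.26% lower). This count of 12 was 18 without NIL C and 7 without SDD A, where 29.1% and 10.1% of all tested genes were called. The members' median log2 change was 0.01, against 0.05 over all tested genes.

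Against NIL, RISDD had 24 members lower and 7 higher, where 46.7% of all tested genes were called (23.5% lower, 23.2% higher). SDDIR had 19 lower and 3 higher than NIL, where 33.5% were called (18.2% lower, 15.3% higher), and this count of 22 was 9 without SDDIR A and 12 without SDDIR B. The median log2 change of the members was -1.07 in RISDD against NIL and -0.64 in SDDIR against NIL, beside 0.05 and 0.03 over all tested genes. The comparisons share SDD or NIL libraries and are not independent.

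Groups without overlap were common at these numbers of libraries. The groups did not overlap for 34 members in RISDD against SDD (70.7% of all tested genes), 33 in SDDIR against SDD (64.9%), 31 in RISDD against SDDIR (60.1%) and 17 in SDD against NIL (36.3%). Against NIL the numbers were 32 for RISDD (56.7% of all tested genes) and 23 for SDDIR (55.4%). Gaps between groups given below are therefore descriptions.

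**Figure D1:**
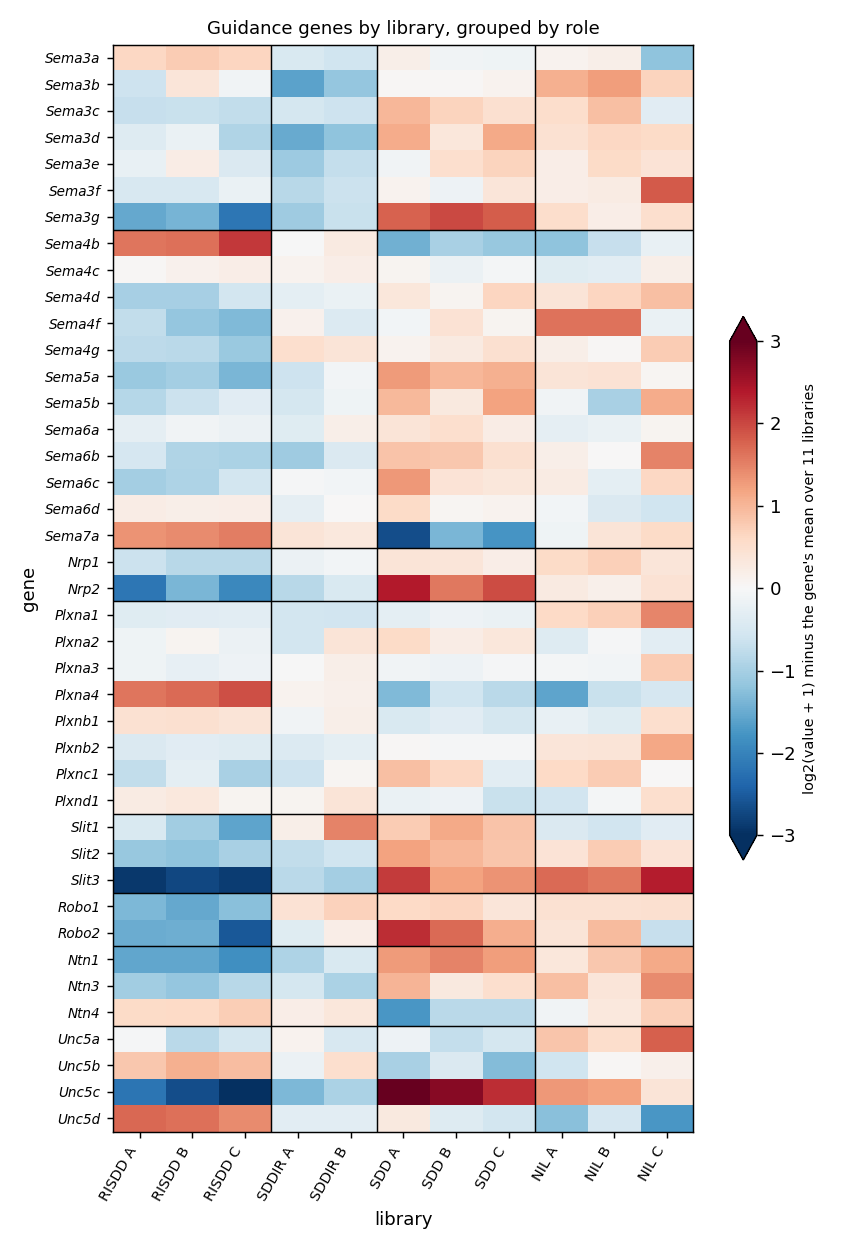
Each of the 41 guidance genes (rows, grouped by role) in each of the 11 libraries (columns), as log2(normalised count + 1) minus the gene's mean over the libraries, red above it and blue below. Slit3, Unc5c, Nrp2 and Ntn1 are bluest in the 3 RISDD libraries, where Sema4b, Sema7a, Plxna4 and Unc5d are red.

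The upstream sequences of 5 members with large RISDD changes are shown because they include 4 genes that fell, Nrp2, Sema3g, Slit3 and Unc5c, and 1 that rose, Sema7a. Each is the 250 bases before the gene's single RefSeq start in GRCm38.p6, read 5′ to 3′ on the gene's plus strand. Capitals mark GC boxes (GGGCGG, the core letters bound by Sp1-type factors, on either strand) and the TATA letters TATAA on either strand, with overlapping matches run together.
Nrp2, chr1:62703067-62703316: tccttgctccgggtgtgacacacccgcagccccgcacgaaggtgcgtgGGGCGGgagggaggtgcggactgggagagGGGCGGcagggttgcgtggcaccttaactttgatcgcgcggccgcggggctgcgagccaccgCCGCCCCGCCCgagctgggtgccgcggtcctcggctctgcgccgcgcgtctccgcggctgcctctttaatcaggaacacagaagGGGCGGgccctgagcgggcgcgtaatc
Sema3g, chr14:31217623-31217872: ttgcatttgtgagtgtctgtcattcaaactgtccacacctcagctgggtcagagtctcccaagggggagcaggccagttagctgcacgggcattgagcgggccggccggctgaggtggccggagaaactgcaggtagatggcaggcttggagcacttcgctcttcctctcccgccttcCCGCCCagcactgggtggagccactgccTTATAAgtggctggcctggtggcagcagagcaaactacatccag
Slit3, chr11:35121206-35121455: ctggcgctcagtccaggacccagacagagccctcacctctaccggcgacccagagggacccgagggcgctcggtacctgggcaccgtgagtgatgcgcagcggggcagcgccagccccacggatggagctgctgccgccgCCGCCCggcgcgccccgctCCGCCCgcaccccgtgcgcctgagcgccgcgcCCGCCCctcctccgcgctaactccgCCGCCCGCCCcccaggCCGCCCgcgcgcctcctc
Unc5c, chr3:141465314-141465563: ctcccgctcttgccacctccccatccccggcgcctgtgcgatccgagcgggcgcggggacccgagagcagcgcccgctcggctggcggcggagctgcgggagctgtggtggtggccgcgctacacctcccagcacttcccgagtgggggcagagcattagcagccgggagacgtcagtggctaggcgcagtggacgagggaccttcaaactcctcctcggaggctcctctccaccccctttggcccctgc
Sema7a, chr9:57939862-57940111: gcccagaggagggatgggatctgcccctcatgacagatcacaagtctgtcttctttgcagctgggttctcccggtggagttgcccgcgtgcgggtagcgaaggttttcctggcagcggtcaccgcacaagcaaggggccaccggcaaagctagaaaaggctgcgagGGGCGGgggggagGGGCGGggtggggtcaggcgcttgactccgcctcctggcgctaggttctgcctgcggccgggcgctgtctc

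Nrp2 held 5 GC boxes and Slit3 held 6, and Sema7a held 2. Sema3g held 1 GC box and the TATA letters on both strands, and Unc5c held neither motif. CpG pairs numbered 32 in Nrp2, 35 in Slit3, 23 in Unc5c, 17 in Sema7a and 8 in Sema3g. The table had such windows for 33 of the 41 members, 43 windows in all. A GC box stood in 69.8% of these windows (26 genes) and in 32.7% of all 32851 windows of that length, and TATAA in 9.3% and 22.8%. The windows were not matched for base composition. The AP-1 letters TGANTCA stood in 3 member windows, of Sema4c, Sema4d and Sema6b (6.98%, and 6.75% of all windows). The ETS letters CCGGAAG stood in the window of Plxnb1 alone among members (6.91% of all windows), and CAGATG, an E-box used by neurogenins, in that of Sema3c alone (14.4% of all windows). A match is a run of letters and shows no binding, and the letters may also lie outside these windows.

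The secreted class 3 semaphorins that changed relative to SDD were all lower with HRAS. In RISDD, 3 of 7 were lower than in SDD and none was higher, and in SDDIR 5 of 7 were lower and none higher. The RISDD share of 42.9% was close to the 42.6% over all tested genes, and the SDDIR share was 71.4%, beside 22.5% over all tested genes. Sema3g, a ligand that acts through Nrp2, had 38.3, 42.5 and 24.5 normalised counts in RISDD A to C and 53.4 and 71.1 in SDDIR A and B, against 386, 446 and 402 in SDD and 164, 129 and 160.2 in NIL. All RISDD and SDDIR libraries lay below all SDD and NIL libraries, and the SDD libraries stood above those of NIL. Sema3g fell by 3.55 ± 0.24 in RISDD (11.7-fold, limma adjusted p = 1.6e-06) and by 2.72 ± 0.26 in SDDIR (6.57-fold, adjusted p = 9.58e-05) relative to SDD. In SDD it was 2.72-fold higher than in NIL (log2 1.44 ± 0.24, limma adjusted p = 0.00347), and log2 1.49 without NIL C. The difference between RISDD and SDDIR did not pass for this gene (log2 -0.83 ± 0.26, 95% interval -1.42 to -0.24, limma adjusted p = 0.0774).

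Sema3d, another class 3 ligand, was lowest in SDDIR. Its values were 76.7, 87.0 and 52.95 in RISDD, 34.7 and 42.7 in SDDIR, 219.9, 127 and 221 in SDD and 138, 155 and 149 in NIL. Relative to SDD it fell by 2.22 ± 0.30 (log2) in SDDIR and by 1.36 ± 0.27 in RISDD (limma adjusted p = 0.000597 and 0.00214). SDDIR was also 3.75-fold below NIL (limma adjusted p = 0.00108). Sema3c, a ligand of both neuropilins, was lower in RISDD by a log2 change of -1.41 ± 0.26 relative to SDD. Sema3b, present at under 100 normalised counts in every library, was lower in SDDIR than in SDD by -1.45 ± 0.35 (limma adjusted p = 0.0127, and 0.117 without SDDIR A).

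Sema3a, which repels motor and sensory axons through Nrp1 and plexin A proteins, was highest in RISDD. It had 3318, 3659.7 and 3359.8 in RISDD and 1566 and 1413 in SDDIR, and 2411, 1977 and 1962 in SDD and 2297, 2416 and 929.9 in NIL. Every RISDD library was above every other library, and NIL C was the lowest of all 11. RISDD was 2.31-fold higher than SDDIR (log2 1.21 ± 0.34, limma adjusted p = 0.0483), a call lost in 12 of 23 alternatives, with limma adjusted p up to 0.242. These include leaving out any 1 library of RISDD, SDDIR or SDD. RISDD was 1.99-fold higher than NIL (limma adjusted p = 0.0204), and against SDD the change of 0.71 ± 0.30 did not pass (limma adjusted p = 0.0824). Without RISDD A, RISDD B or RISDD C the call against NIL was lost (limma adjusted p = 0.0507, 0.0637 and 0.0537). Without NIL C the difference from NIL was log2 0.55 (limma adjusted p = 0.000884).

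Sema3e signals directly through Plxnd1, and Sema3f through Nrp2. Sema3e had 1242, 1704 and 1083 in RISDD, 688 and 882 in SDDIR, 1358, 2055 and 2323 in SDD and 1664, 2182 and 1935 in NIL. SDDIR lay below every other library and was 2.46-fold lower than NIL (limma adjusted p = 0.00371, and 0.0506 without SDDIR A). Sema3f had 292, 292 and 354 in RISDD, 229 and 258 in SDDIR, 436, 365 and 521 in SDD and 469.6, 485 and 1462 in NIL, where NIL C was about 3 times its companions. SDDIR was 2.84-fold lower than NIL for Sema3f (limma adjusted p = 0.018, and 0.129 with only those groups fitted), and 1.96-fold without NIL C (limma adjusted p = 0.000998). That call was lost without SDDIR A (limma adjusted p = 0.114) and without SDDIR B (limma adjusted p = 0.0768).

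Among the 12 membrane semaphorins, 2 rose and 6 fell in RISDD relative to SDD, and 2 rose and 2 fell in SDDIR (66.7% and 33.3% called, beside 42.6% and 22.5% of all tested genes). Sema7a, which is held in the membrane by a glycolipid anchor and binds beta1 integrins and Plxnc1, had 12477, 13078 and 14156 in RISDD, 6354 and 6084 in SDDIR, 768, 1882 and 1428 in SDD and 4476, 6434 and 7248 in NIL. The RISDD libraries were the highest and the SDD libraries the lowest, with no overlap between those groups and any other. Relative to SDD, Sema7a was 10.4-fold higher in RISDD (log2 3.38 ± 0.29, limma adjusted p = 7.84e-06) and 4.88-fold higher in SDDIR (log2 2.29 ± 0.32, limma adjusted p = 0.000696). SDD was 4.66-fold below NIL (log2 -2.22 ± 0.29, limma adjusted p = 0.0011). SDDIR and NIL overlapped (log2 0.07 ± 0.32, 95% interval -0.64 to 0.78, limma adjusted p = 0.884), while RISDD was 2.23-fold above NIL (limma adjusted p = 0.0077). The step of RISDD over SDDIR, log2 1.09 ± 0.32, did not pass (limma adjusted p = 0.0595).

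Sema4b, a class 4 transmembrane semaphorin, was highest in RISDD and intermediate in SDDIR. It had 1644, 1711 and 2353 in RISDD, 539 and 653 in SDDIR, 199.6, 273 and 247 in SDD and 233, 337 and 462 in NIL. SDD and NIL overlapped, SDDIR lay above both, and RISDD lay above SDDIR. RISDD was 7.87-fold above SDD (limma adjusted p = 6.84e-06), 5.66-fold above NIL (limma adjusted p = 2.37e-05) and 3.16-fold above SDDIR (limma adjusted p = 0.00524). The call against SDDIR was lost without SDDIR A (limma adjusted p = 0.076). SDDIR was 2.49-fold above SDD (limma adjusted p = 0.00651, and 0.0714 without SDDIR B).

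Sema4g and Sema6b, both transmembrane, were lower with HRAS in part of the comparisons. Sema4g had 53.2, 51.6 and 41.9 in RISDD, 129.6 and 121 in SDDIR, 99.2, 111 and 128 in SDD and 104, 93.6 and 156 in NIL, so that RISDD alone lay below the rest. RISDD was 2.54-fold below SDDIR (limma adjusted p = 0.0106), a call lost without SDDIR A and without SDDIR B (limma adjusted p = 0.106 and 0.0699), and 2.28-fold below SDD (limma adjusted p = 0.00202). Sema6b had 43.3, 32.4 and 31.6 in RISDD, 28.8 and 45.1 in SDDIR, 112, 109 and 86.0 in SDD and 70.0, 62.4 and 175 in NIL. Sema6b was lower in RISDD than in SDD by a log2 change of -1.50 (limma adjusted p = 0.0089), a call kept under each of the 23 alternatives. Its lower level in SDDIR than in NIL, 2.50-fold (limma adjusted p = 0.0358), was lost in 10 of 23 alternatives, among them without SDDIR A (limma adjusted p = 0.239) and without SDDIR B (limma adjusted p = 0.0671), and was 1.81-fold without NIL C (limma adjusted p = 0.0322).

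Sema5a, a transmembrane semaphorin with thrombospondin repeats, was lower in RISDD than in SDD by a log2 change of -2.29 ± 0.17 (limma adjusted p = 3.58e-06). Sema4d, a ligand of Plxnb1, was lower by -1.21 ± 0.22, and Sema6c by -1.52 ± 0.31 (limma adjusted p = 0.00132 and 0.00238). Sema6a, a ligand of Plxna2 and Plxna4, had a change of -0.55 ± 0.16 whose call was lost without SDD A, SDD B, RISDD A or RISDD C (limma adjusted p = 0.0511, 0.0698, 0.0676 and 0.0532). Sema4c, a ligand of Plxnb2, and Sema6d, a ligand of Plxna1, had changes of 0.17 ± 0.15 and -0.05 ± 0.17 that did not pass. Sema4f and Sema5b, the 2 membrane semaphorins with the lowest values, had changes of -1.21 ± 0.50 and -1.44 ± 0.59 that did not pass either.

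**Figure D2:**
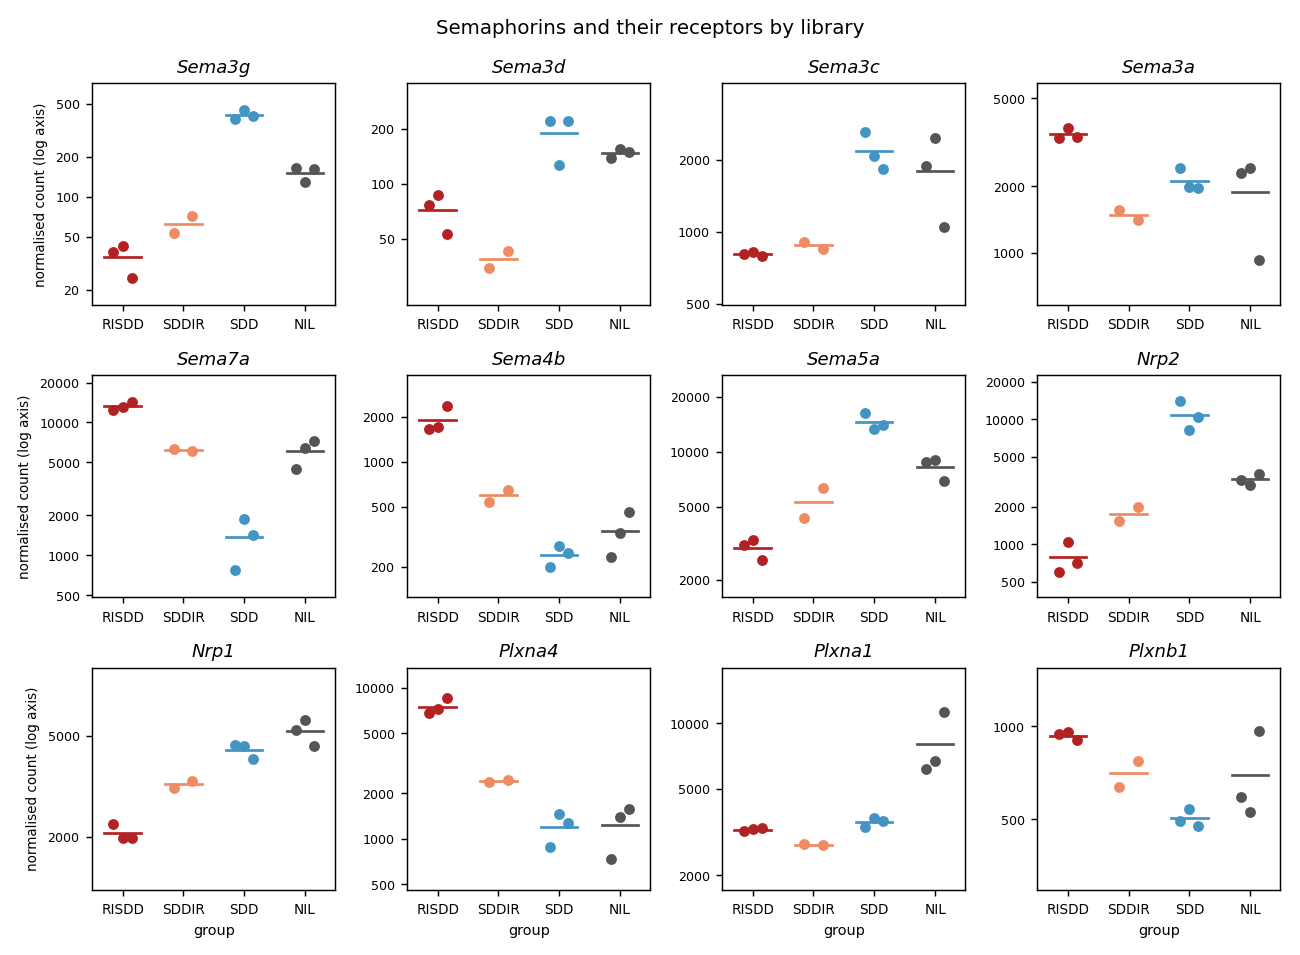
Normalised counts (log axis) of 12 semaphorin, neuropilin and plexin genes in RISDD, SDDIR, SDD and NIL, 1 point per library and a line at the group mean. Sema7a, Sema4b and Plxna4 are highest in RISDD, whereas Sema3g and Nrp2 peak in SDD.

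The neuropilins, which bind class 3 semaphorins, were both lower than in SDD with HRAS, Nrp1 in SDDIR by a call that was not stable. Nrp2 had 601, 1045 and 713 in RISDD and 1534 and 1983 in SDDIR, against 14065, 8169.9 and 10475 in SDD and 3263, 3004 and 3649 in NIL. The 4 groups did not overlap, and the order ran from RISDD, the lowest, through SDDIR and NIL to SDD, the highest. Relative to SDD, Nrp2 fell by 3.80 ± 0.24 on the log2 scale in RISDD (13.9-fold, limma adjusted p = 1.03e-06) and by 2.61 ± 0.26 in SDDIR (6.10-fold, limma adjusted p = 0.000114). SDD was 3.23-fold above NIL (log2 1.69 ± 0.24, limma adjusted p = 0.00165, and 3.40-fold without NIL C). RISDD was 2.28-fold below SDDIR (limma adjusted p = 0.0199). Leaving out 1 library ended that last call in 4 cases (limma adjusted p = 0.0861 without SDDIR A, 0.173 without SDDIR B, 0.0732 without RISDD A and 0.0717 without RISDD C). Nrp1, which also binds VEGF, was lower in RISDD than in SDD by a log2 change of -1.09 ± 0.12 (limma adjusted p = 4.7e-05). In SDDIR the Nrp1 change relative to SDD was -0.45 ± 0.14 (limma adjusted p = 0.0353), a call lost in 11 of 23 alternatives (limma adjusted p = 0.21 without SDDIR A and 0.123 without SDDIR B).

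Of the 8 plexins, 2 were higher and 1 lower in RISDD than in SDD, and 1 was higher in SDDIR. These shares of 37.5% and 12.5% lay below the 42.6% and 22.5% over all tested genes. Plxna4, the signalling partner of neuropilins in sensory and sympathetic axons, had 6762, 7240.5 and 8493 in RISDD, 2391 and 2452 in SDDIR, 885, 1458 and 1268 in SDD and 736, 1388 and 1563 in NIL. SDD and NIL overlapped and all HRAS libraries lay above them. RISDD was 6.33-fold above SDD (log2 2.66 ± 0.27, limma adjusted p = 2.55e-05), 6.38-fold above NIL (limma adjusted p = 2.84e-05) and 3.08-fold above SDDIR (limma adjusted p = 0.00896). The step over SDDIR was lost without SDDIR A (limma adjusted p = 0.0897) or SDDIR B (limma adjusted p = 0.0685). SDDIR was 2.05-fold above SDD (limma adjusted p = 0.0319). That call was lost without SDD A, SDD C, SDDIR A, SDDIR B or RISDD B (limma adjusted p = 0.109, 0.0651, 0.143, 0.156 and 0.0523).

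Plxna1, a receptor for class 3 and class 6 semaphorins, separated NIL from the rest. It had 3189.7, 3260.2 and 3301 in RISDD, 2779 and 2755 in SDDIR, 3349, 3684 and 3574 in SDD and 6197, 6695 and 11249 in NIL, with NIL C the highest. SDD was 2.20-fold below NIL (limma adjusted p = 0.00395), and 1.82-fold without NIL C. SDDIR was 2.80-fold below NIL (limma adjusted p = 0.00062), and 2.33-fold without NIL C. In RISDD and SDDIR, Plxna1 differed from SDD by log2 -0.12 ± 0.19 and -0.35 ± 0.21, changes that did not pass. Plxnb1, the receptor of Sema4d, was higher in RISDD than in SDD by a log2 change of 0.89 ± 0.20 (limma adjusted p = 0.00487). Plxnc1, a receptor of Sema7a, had a change of -1.08 ± 0.35 in groups that overlapped, and Plxnd1, Plxna2, Plxna3 and Plxnb2 passed in neither HRAS comparison with SDD.

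Slit3 fell further in RISDD than any other ligand of these families. All 3 slits were lower in RISDD than in SDD, and 2 of 3 were lower in SDDIR, where 22.6% and 13.9% of all tested genes were lower. Slit3 had 319, 356 and 327 in RISDD and 1345 and 1157 in SDDIR, against 10077, 5454 and 6010.1 in SDD and 7729, 7093 and 12122 in NIL. The RISDD libraries lay close together far below SDDIR, SDDIR lay far below both groups without HRAS, and SDD and NIL overlapped. Slit3 fell by 4.37 ± 0.25 on the log2 scale in RISDD (20.7-fold, limma adjusted p = 5.72e-07) and by 2.47 ± 0.28 in SDDIR (5.54-fold, limma adjusted p = 0.00019) relative to SDD. RISDD was a further 3.73-fold below SDDIR (log2 -1.90 ± 0.28, limma adjusted p = 0.00288), a call kept under each of the 23 alternatives. Against NIL, Slit3 was 26.1-fold lower in RISDD and 6.99-fold lower in SDDIR (limma adjusted p = 3.85e-07 and 7.26e-05), and 22.1-fold and 5.93-fold without NIL C. All 11 fibroblast markers were lower in RISDD than in SDD and 10 of 11 in SDDIR, and their part in the Slit3 values was not tested.

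Slit2, a repellent made at the ventral midline, was lower than in SDD by log2 changes of -2.12 ± 0.14 in RISDD and -1.68 ± 0.16 in SDDIR (limma adjusted p = 1.59e-06 and 7.56e-05). Slit1, found mainly in the nervous system, had 391, 258 and 177 in RISDD, 603 and 1485 in SDDIR, 909.9, 1173 and 966 in SDD and 395, 360.1 and 417 in NIL. SDDIR A and SDDIR B differed more than 2-fold and lay on either side of the SDD libraries, and RISDD A lay among the NIL libraries. RISDD was 3.85-fold below SDD (limma adjusted p = 0.000883), whereas SDDIR differed from SDD by log2 -0.09 ± 0.37 (95% interval -0.92 to 0.74, limma adjusted p = 0.9). RISDD was 3.61-fold below SDDIR (limma adjusted p = 0.013, and 0.091 with only those groups fitted). That difference was 5.67-fold without SDDIR A and 2.30-fold without SDDIR B, where it no longer passed (limma adjusted p = 0.123). SDD was 2.59-fold above NIL (limma adjusted p = 0.0201), a call lost without SDD A, SDD B or SDD C (limma adjusted p = 0.0522, 0.0717 and 0.0615).

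Of the robo receptors of the slits, Robo1 was low in RISDD alone, while Robo2 was lowest in RISDD and highest in SDD. Robo1 had 1847, 1615 and 1944 in RISDD, against 6341 and 7583 in SDDIR, 7049.5, 7301 and 5977 in SDD and 6374, 6452 and 6477 in NIL. The RISDD libraries alone were low, and those of SDDIR, SDD and NIL overlapped. RISDD was 3.86-fold below SDDIR (log2 -1.95 ± 0.14, limma adjusted p = 0.000125), the smallest adjusted p among the members in that comparison, and 3.76-fold below SDD (limma adjusted p = 1.32e-06). SDDIR differed from SDD by log2 0.04 ± 0.14, with a 95% interval of -0.27 to 0.34 (limma adjusted p = 0.887), and SDD from NIL by 0.07 ± 0.12, with an interval of -0.20 to 0.34. In the same SDDIR libraries the ligands Slit2 and Slit3 were low, as given above.

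Robo2, another slit receptor of axons, had 64.3, 64.7 and 30.0 in RISDD, 141 and 209.8 in SDDIR, 851, 593 and 386 in SDD and 236, 353 and 112 in NIL. RISDD was lowest, and the SDD libraries lay above all others but spread more than 2-fold among themselves. Robo2 fell by 3.51 ± 0.46 on the log2 scale in RISDD (11.4-fold, limma adjusted p = 0.000143) and by 1.75 ± 0.51 in SDDIR (3.36-fold, limma adjusted p = 0.0325) relative to SDD. The SDDIR call was lost without SDD A, SDD B, SDDIR A or SDDIR B (limma adjusted p = 0.114, 0.0794, 0.223 and 0.0884). Robo2 was 2.75-fold higher in SDD than in NIL at an adjusted p of 0.052 by limma, which did not pass. SDDIR overlapped with NIL and differed from it by log2 -0.29 ± 0.51 (95% interval -1.43 to 0.84, limma adjusted p = 0.685).

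The netrins moved in opposite directions. Ntn1, the floor plate attractant, had 286, 284 and 236 in RISDD and 445 and 613 in SDDIR, against 2033, 2366 and 2022 in SDD and 1074, 1477 and 1855 in NIL. RISDD lay below SDDIR, and both lay below every SDD and NIL library. Ntn1 fell by 2.99 ± 0.20 on the log2 scale in RISDD (7.95-fold, limma adjusted p = 1.82e-06) and by 2.03 ± 0.23 in SDDIR (4.08-fold, limma adjusted p = 0.000187) relative to SDD. It was 5.34-fold lower in RISDD and 2.74-fold lower in SDDIR than in NIL (limma adjusted p = 8.43e-06 and 0.000995). The 1.95-fold step of RISDD below SDDIR (limma adjusted p = 0.0253) was lost without SDDIR A, SDDIR B, RISDD A, RISDD B or RISDD C (limma adjusted p = 0.0726, 0.226, 0.063, 0.0682 and 0.0923). Ntn3, a close relative that also binds Dcc and UNC5 receptors, was lower in RISDD than in SDD by a log2 change of -1.61 ± 0.33.

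Ntn4, a netrin of basement membranes that is built on a laminin beta-like domain, had 1166, 1197 and 1317 in RISDD, 909 and 988 in SDDIR, 235, 446 and 445 in SDD and 731, 972 and 1281 in NIL. SDD alone was low, and the NIL libraries overlapped with those of RISDD and SDDIR. RISDD was 3.40-fold above SDD (limma adjusted p = 0.000327). SDDIR was 2.63-fold above SDD (limma adjusted p = 0.00648, and 0.059 without SDDIR B). SDD was 2.69-fold below NIL (limma adjusted p = 0.00559), which did not pass when only SDD and NIL were fitted (limma adjusted p = 0.0566). Ntn4 passed against NIL in neither HRAS group, with log2 changes of 0.34 ± 0.26 in RISDD (95% interval -0.24 to 0.92) and -0.03 ± 0.29 in SDDIR (95% interval -0.68 to 0.61).

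The UNC5 receptors, which turn netrin into a repellent and can trigger death of cells without the ligand, had separate patterns. Unc5c, needed for the paths of motor axons out of the spinal cord, had 19.8, 14.2 and 5.53 in RISDD and 36.4 and 48.6 in SDDIR, against 887, 630.5 and 439.9 in SDD and 235, 219.6 and 123 in NIL. The groups did not overlap, with RISDD lowest and SDD highest. Unc5c fell by 5.62 ± 0.44 on the log2 scale in RISDD (49.3-fold, limma adjusted p = 4.58e-06, or 28.5-fold with a pseudocount of 10) and by 3.86 ± 0.49 in SDDIR (14.6-fold, limma adjusted p = 0.000408) relative to SDD. The fall in RISDD was the largest log2 change of any member in any of the 6 comparisons. SDD was 3.37-fold above NIL (limma adjusted p = 0.0224), a call lost without SDD A (limma adjusted p = 0.0901) or SDD B (limma adjusted p = 0.0659). Against NIL, Unc5c was 14.7-fold lower in RISDD (limma adjusted p = 5.93e-05, or 8.76-fold with a pseudocount of 10) and 4.33-fold lower in SDDIR (limma adjusted p = 0.00827, and 0.0772 without SDDIR A).

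Unc5d, a receptor of FLRT2 as well as netrin, was high in RISDD alone. It had 638, 614 and 522 in RISDD, 154 and 154 in SDDIR, 236, 149 and 132 in SDD and 80.6, 136 and 57.3 in NIL. RISDD was 3.52-fold above SDD (limma adjusted p = 0.000781), 6.81-fold above NIL (limma adjusted p = 5.03e-05) and 3.81-fold above SDDIR (limma adjusted p = 0.00727). The last call was lost without SDDIR A or SDDIR B (limma adjusted p = 0.0752 and 0.0609). SDDIR differed from SDD by log2 -0.11 ± 0.34, with a 95% interval of -0.87 to 0.65 (limma adjusted p = 0.867).

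Unc5a, found mainly in neurons, was set apart in NIL. It had 359.9, 210.3 and 255 in RISDD, 396 and 266 in SDDIR, 332, 226 and 259 in SDD and 666, 536 and 1299 in NIL, with NIL C the highest. SDD was 2.87-fold below NIL (limma adjusted p = 0.0118), 2.22-fold without NIL C, and the call did not pass when only those groups were fitted (limma adjusted p = 0.0569). RISDD and SDD differed by a log2 change with a 95% interval of -0.73 to 0.73 (limma adjusted p = 0.998). Unc5b, known from endothelial guidance, was higher in RISDD than in SDD by a log2 change of 1.83 ± 0.27 (limma adjusted p = 0.000286). The endothelial marker Cdh5 had 419 to 539 normalised counts in RISDD and 35.0 to 72.5 in SDD. Of the 4 endothelial markers tested, 3 were higher and none lower in RISDD than in SDD, where 20.0% of all tested genes were higher. Among those not tested, Emcn was at 0 in both groups, and Erg was at 0 in RISDD and at 3.07 to 6.77 in SDD. Cldn5 was at 3.95 to 10.1 in RISDD and at 0 to 3.07 in SDD. Tie1 was at 1.01 to 3.95 in RISDD and at 0 to 1.23 in SDD, and Tek at 4.74 to 9.10 and at 3.87 to 5.64. The part of these markers in the Unc5b values was not tested.

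**Figure D3:**
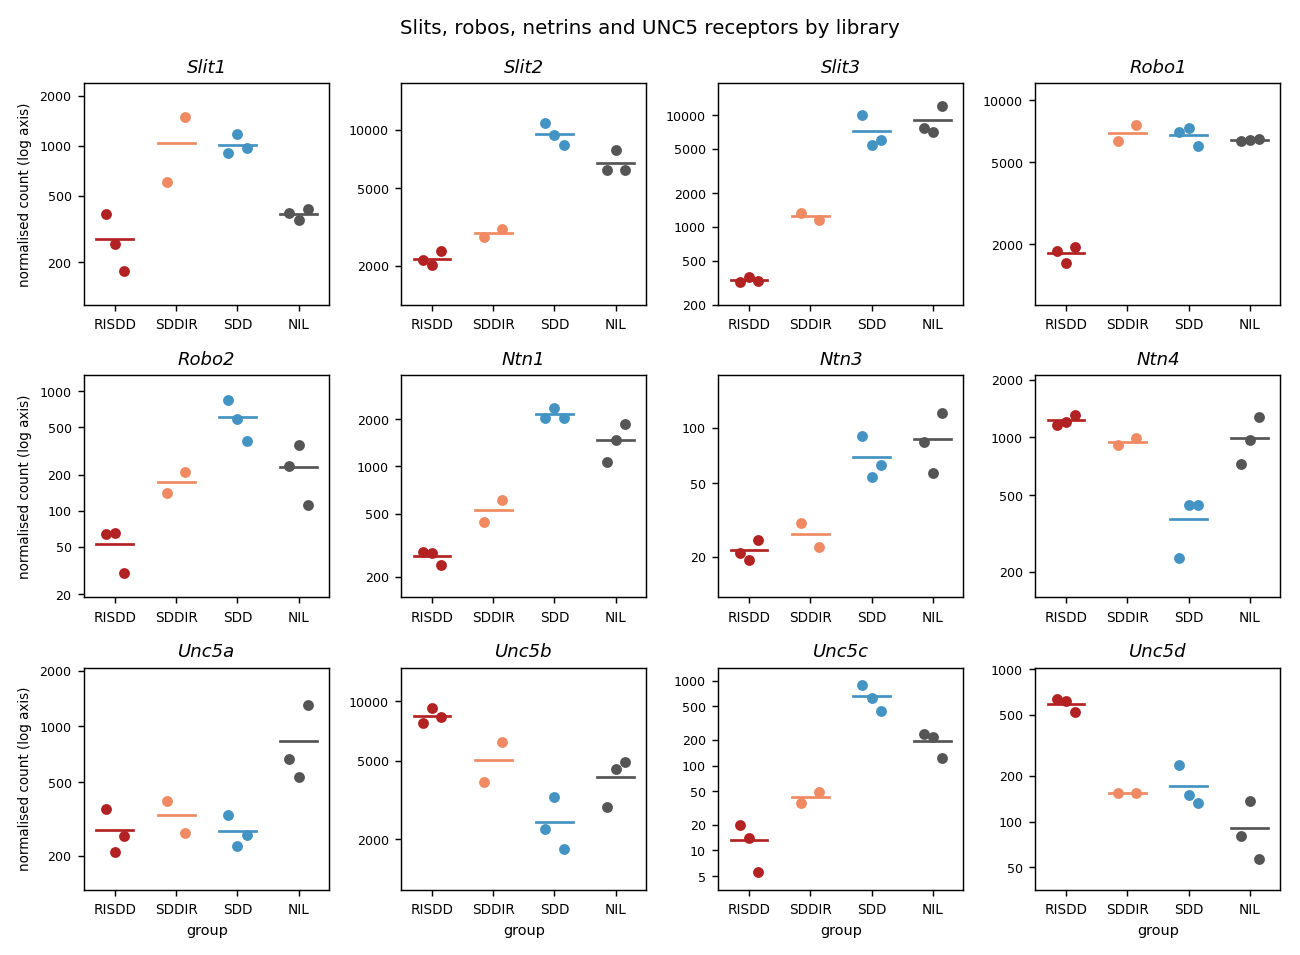
Normalised counts (log axis) of the 12 slit, robo, netrin and UNC5 genes in RISDD, SDDIR, SDD and NIL, 1 point per library and a line at the group mean. Slit3, Robo1 and Unc5c are lowest in RISDD and Unc5d is highest there, while Robo1 in SDDIR lies level with SDD and NIL.

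Set side by side, ligands and receptors moved together in some pairs and apart in others in RISDD. Slit1, Slit2 and Slit3 and their receptors Robo1 and Robo2 were all lower than in SDD. Ntn1 was lower while its UNC5 receptors divided into 1 lower (Unc5c), 2 higher (Unc5b and Unc5d) and 1 that did not pass (Unc5a). Sema3g and its co-receptor Nrp2 were both lower, and Sema4d was lower while its receptor Plxnb1 was higher. Sema7a was higher while Plxnc1 was lower, by a call lost without SDD A, SDD B, RISDD A or RISDD C (limma adjusted p = 0.117, 0.0921, 0.0795 and 0.103).

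**Figure D4:**
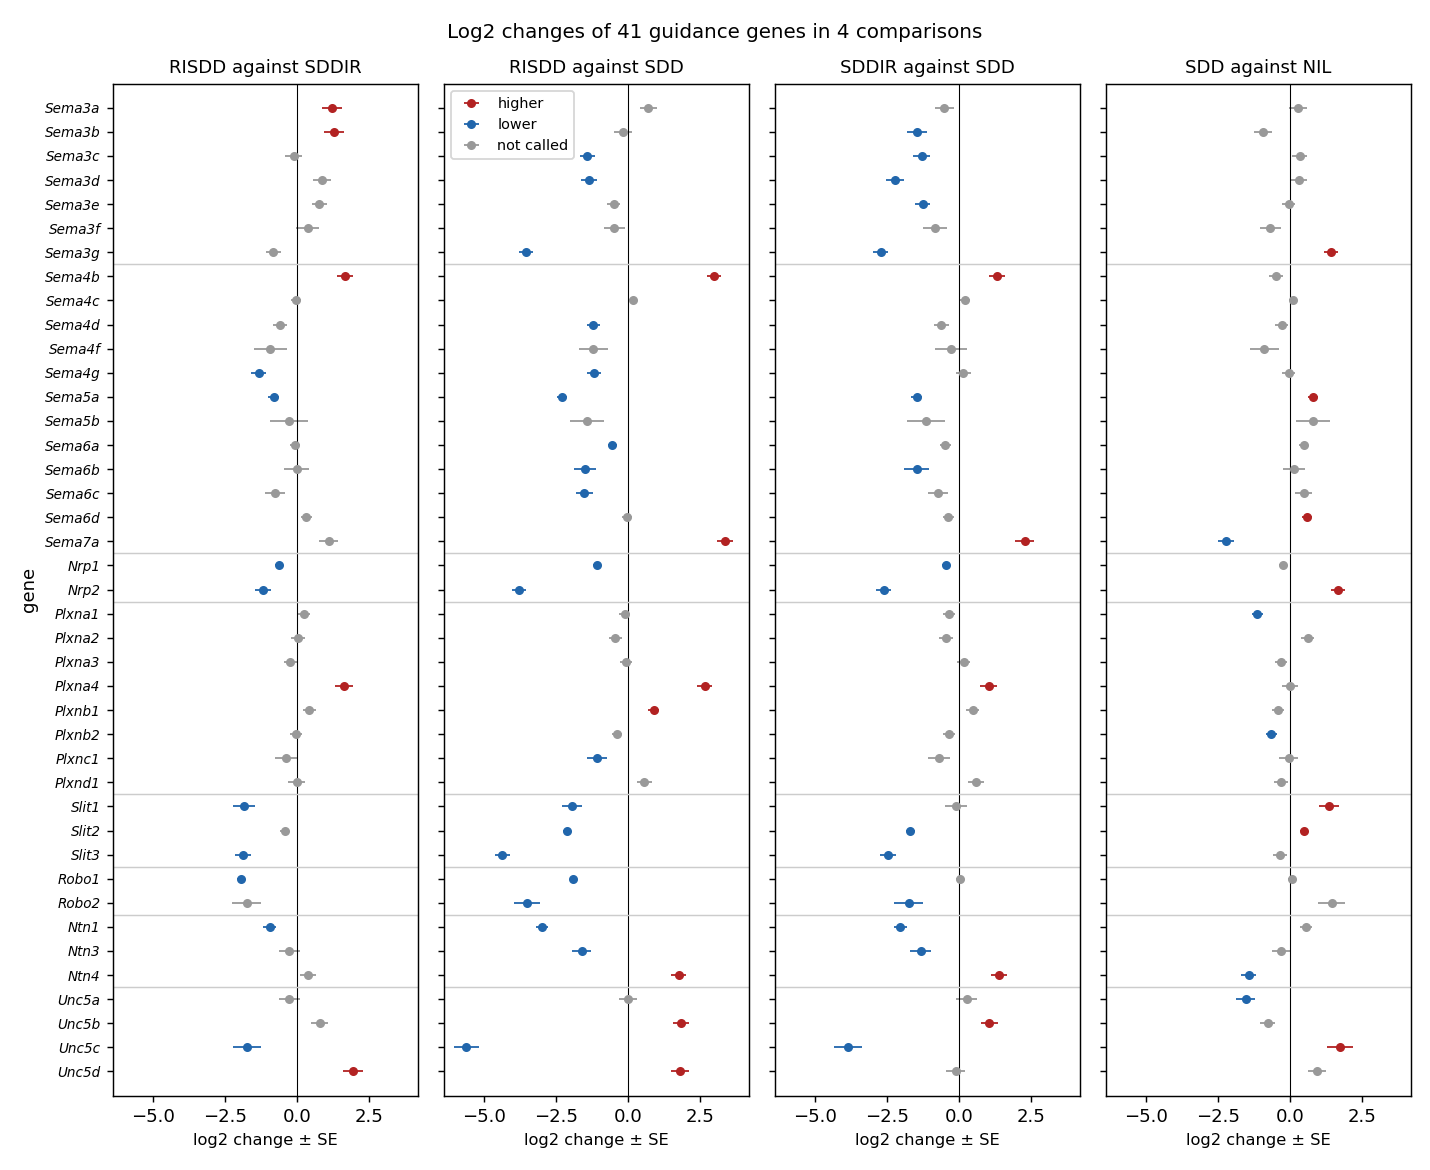
Log2 change with its standard error for each of the 41 guidance genes in RISDD against SDDIR, RISDD against SDD, SDDIR against SDD and SDD against NIL (panels left to right), red for higher, blue for lower and grey for not called. RISDD against SDD has 20 genes lower and 7 higher, from Unc5c at -5.62 to Sema7a at 3.38.

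Partners of these pathways that lie outside the families were read from 3 lists. Of 21 genes of semaphorin signal transduction, 5 were higher and 4 lower in RISDD than in SDD, 3 higher and 5 lower in SDDIR than in SDD, and 5 higher and none lower in RISDD than in SDDIR. The 9 called in RISDD against SDD are 42.9% of the list, beside 42.6% of all tested genes. The list shares were 38.1% in SDDIR against SDD and 23.8% in RISDD against SDDIR, beside 22.5% and 9.69% of all tested genes. The list's median log2 change in RISDD against SDD was 0.03, against 0.02 over all tested genes. Crmp1, a collapsin response mediator that relays Sema3a signals to the cytoskeleton, averaged 2609 ± 446 in RISDD and 353 ± 102 in SDD (SD, n = 3 each), 7.49-fold higher in RISDD (log2 2.90 ± 0.21, limma adjusted p = 2.53e-06). In SDDIR it was 2.93-fold higher than in SDD (limma adjusted p = 0.00104). Mical3, of a family of oxidoreductases that act on actin downstream of plexins, was higher by 1.33 ± 0.13, whereas Erbb2, a kinase partner of plexin B receptors, was lower by -1.70 ± 0.23 and Dpysl4, of the same family as Crmp1, by -1.64 ± 0.23 (log2, RISDD against SDD, limma adjusted p = 2.19e-05, 0.000204 and 0.000224). Of this list, 2 were higher and 2 lower in SDD than in NIL (19% of the list, close to the 17.6% of all tested genes). The 5 calls in RISDD against SDDIR rest on few libraries, numbering 1 without SDDIR A, 2 without RISDD A or RISDD B, 3 without RISDD C and 11 without NIL C. Without SDDIR B limma called none of the 21, with 6 at an unadjusted p under 0.05. The 4 calls in SDD against NIL were 2 without any 1 of the SDD libraries and 9 without NIL C, and the 8 in SDDIR against SDD were 5 without SDDIR A and 13 without NIL C.

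Of 12 slit and robo partners, 2 were higher and 6 lower than in SDD, in RISDD and again in SDDIR. That is 66.7% of the list in each, beside 42.6% of all tested genes in RISDD and 22.5% in SDDIR. The list's median log2 changes were -0.57 in RISDD and -0.67 in SDDIR, against 0.02 and 0.01 over all tested genes. In RISDD against SDDIR 8.33% of the list was called, beside 9.69% of all tested genes. Nell1, a secreted relative of the Robo3 ligand Nell2, averaged 0.412 in RISDD and 109.7 in SDD, too low in RISDD for a fold. Flrt1 and Flrt2, of a family of membrane proteins that bind UNC5 receptors and latrophilins, fell by 3.39 ± 0.41 and 1.69 ± 0.25 in RISDD, and Flrt2 fell by 2.41 ± 0.27 in SDDIR (log2, relative to SDD, limma adjusted p = 8.57e-05, 0.000291 and 0.000204). Nell2 fell by 1.36 ± 0.24 in RISDD (limma adjusted p = 0.00103). In SDD, 4 of these partners were higher and 1 was lower than in NIL (41.7% of the list, beside 17.6% of all tested genes). These 5 calls were 1 without SDD A or SDD C, 3 without SDD B, NIL B or any 1 of the RISDD libraries, and 8 with DESeq2. With only SDD and NIL fitted limma called none, with 6 at an unadjusted p under 0.05. In RISDD against SDDIR limma called Flrt1 alone, as lower, by a call lost without SDD B, SDD C, SDDIR B or any 1 of the RISDD libraries, and 6 partners were called without NIL C.

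Of 16 netrin receptors and partners, 4 were higher and 7 lower in RISDD than in SDD, 2 higher and 3 lower in SDDIR than in SDD, 5 higher and 1 lower in RISDD than in SDDIR, and 3 higher and 3 lower in SDD than in NIL. Their median log2 change in RISDD against SDD was -0.44, against 0.02 over all tested genes. In that comparison 68.8% of the list was called, beside 42.6% of all tested genes. In SDDIR against SDD 31.2% of the list was called, beside 22.5% of all tested genes. The list share was 37.5% in RISDD against SDDIR and in SDD against NIL, beside 9.69% and 17.6% of all tested genes. The 6 calls in RISDD against SDDIR numbered 1 without SDD C, RISDD A or RISDD B and 2 without SDD B or RISDD C, and limma called none without SDDIR A and none without SDDIR B, with 6 at an unadjusted p under 0.05 in each case. The 6 calls in SDD against NIL were 3 without SDD A or SDD C, and the 5 in SDDIR against SDD were 3 without SDD B, SDDIR A or SDDIR B and 10 without NIL C. Dcc, the receptor for netrin attraction, averaged 10.9 ± 3.28 in RISDD and 80.5 ± 35.5 in SDD (SD, n = 3 each) and fell by 2.73 ± 0.49 on the log2 scale (limma adjusted p = 0.00123). Neo1, or neogenin, a related receptor for netrins and repulsive guidance molecules, averaged 5513 ± 646 in RISDD and 2749 ± 75.4 in SDD, 2.00-fold higher in RISDD (limma adjusted p = 6.1e-05). Draxin, a secreted protein that binds both netrin-1 and Dcc, fell by 3.82 ± 0.45 in RISDD relative to SDD, and was 7.90-fold higher in SDD than in NIL (limma adjusted p = 7.38e-05 and 0.00239). Ablim1, an actin-binding protein whose worm relative acts in netrin signalling, averaged 309.9 ± 47.6 in RISDD and 3272 ± 865 in SDD and fell by 3.38 ± 0.20 (limma adjusted p = 8.35e-07). Ntng1, a membrane-anchored netrin-G that does not bind Dcc, fell by 3.30 ± 0.37 in RISDD and fell by 3.32 ± 0.42 in SDDIR relative to SDD (limma adjusted p = 5.12e-05 and 0.000366).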

How the data were processed

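Polyadenylated RNA of sorted cells was sequenced, per the labels' protocols, in 4 groups. Trim Galore 0.6.10, Salmon 1.10.3 and GRCm39 are named in the submitters' processing notes. The authors deposited signal values, that is gene counts divided by 1 constant per library. All values of the 11 libraries were whole multiples of that constant (100% at a tolerance of 0.001), so reads were recovered. One heading stood on 2 columns with identical values in 23077 rows, called SDDIR B here. Whether they are replicate B or C is unsettled, and 1 SDDIR sample was not analysed here. In all, 1 column was not used.

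All genes that reached 10 in 3 or more libraries were fitted together with limma 3.58.1 (R 4.3.3, trend and robust moderation) on log2(value + 1), with Benjamini-Hochberg adjustment over all 14207 tested genes. A gene was called at an adjusted p under 0.05. The replicate letters were not used as a block. Alternatives were scaling by quantiles or by the upper quartile, a pseudocount of 0.5 or 10, a minimum of 50 or none, no moderation options, only the groups compared, a replicate block, edgeR 4.0.16 and DESeq2 1.42.0 on the recovered reads, each library left out, and, added after the data were seen, the repeated column counted as a library. Members and lists were chosen with earlier results of these data known.

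Values per library are printed for members that passed in at least 1 comparison, averaged 100 or more in a group, did not overlap between the groups and were among the 8 largest changes. List genes are named, up to 4 per list and comparison, by the same level and test. Dcc and Neo1 could always be named. Upstream sequences are from RefSeq GRCm38.p6. That build differs from that of the values, so no other coordinates are given.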

Additional observations from a re-analysis of the deposited data

How the results depend on the processing

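All 48 calls with values in every library kept their direction in all 1104 reruns, and 33 of them passed in every one. These are the largest changes. Of all 126 member calls over the 6 comparisons, on which the counts of members rest, 71 passed under every alternative. Of 138 reruns of the counts of guidance genes called, 125 stayed within 1.5 times. In SDD against NIL the 12 calls became 7 with only those groups fitted and 19 with DESeq2 (4.91% and 25.6% of all tested genes). Leaving out 1 library gave 7 to 18. In RISDD against SDDIR the 14 became 23 with only those groups fitted and 3 to 21 without 1 library. In SDDIR against NIL the 22 became 9 with only those groups fitted and 9 to 26 without 1 library. Leaving out 1 library gave 12 to 28 in SDDIR against SDD (20 calls), 25 to 33 in RISDD against SDD (27) and 25 to 34 in RISDD against NIL (31). Each highest count came without NIL C. The share of all tested genes called was then 29.1% in SDD against NIL, 44.6% in SDDIR against SDD and 63.2% in RISDD against SDD. It was 29.4% in RISDD against SDDIR, 48.6% in SDDIR against NIL and 59.4% in RISDD against NIL. A fit without SDDIR A or B has 1 SDDIR library, assumed to vary like the other groups. In such fits the share of all tested genes called in the SDDIR comparisons fell as well. The cause of the other shifts was not tested.

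Same-letter libraries of different groups had correlated deviations of 0.0002 to 0.271, 9 of 15 above 0.1, against -0.198 to 0.137 and 1 of 30 above 0.1 for different letters. Deviations were taken from group means, so those of SDDIR A and SDDIR B are of equal size and opposite sign. Each same-letter pair was also counted from both sides, so the comparisons that follow are not independent. With SDDIR B taken as replicate B, which is unsettled, the same letter gave the highest correlation in 29 of 30 library-to-group comparisons. It did so throughout for 10 of 11 libraries, a hint from the data that letters were shared. The labels do not say so and not every same-letter pair passed 0.1, so no pairing was assumed. With a replicate block the calls numbered 15 in SDD against NIL, 20 in SDDIR against SDD, 28 in RISDD against SDD, 15 in RISDD against SDDIR, 22 in SDDIR against NIL and 32 in RISDD against NIL. With the repeated column counted as a library they numbered 16, 21, 28, 19, 23 and 31 in the same order. Members under about 100 normalised counts, such as Sema5b and Sema4f, were measured on few reads.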
